A study of Mus musculus with 4 samples.

Results

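Transcripts of 34 nuclear hormone receptors and their coregulators were described in dorsal skin taken whole from male C57B6 mice during adult telogen, when hair follicles rest. The members were 29 receptor genes and 5 coregulator genes, taken by name from a list, with earlier results of these data known. A gene was measured where the array held a probe set that the platform annotation lists with that gene alone, which was so for 32 of the 34 members and for 18193 genes in all. Nr1h2, which encodes liver X receptor beta, and the corepressor gene Ncor1 had no such set and were not analysed here. The samples were taken at a middle time of telogen, postnatal day 54 (P54), and at a late one, postnatal day 59 (P59), with 2 arrays for each day. Both groups were untreated as far as the labels say, and they share sex and strain. The labels call the arrays biological replicates without saying which animals, or how many, made up a sample, so p-values measure the spread between these samples.

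Nuclear hormone receptors are transcription factors that bind DNA through paired zinc fingers and are switched by small lipid-soluble ligands such as steroids, thyroid hormone, vitamin D and retinoic acid. Many of them, among them the receptors for retinoic acid, vitamin D and thyroid hormone and the liver X receptors, bind as partners of a retinoid X receptor. The ligand decides whether a corepressor such as Ncor1 or a coactivator of the Ncoa family is held. In skin the vitamin D receptor and its corepressor Hairless (Hr) are required for the hair follicle to enter a new growth phase after the first coat. Glucocorticoid, estrogen, retinoid and PPAR receptors are known to act on follicle rest, on keratinocyte differentiation and on sebaceous and fat cell lipid metabolism.

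The DNA element through which retinoic acid receptors act is printed here for Rarb. For Rarg and Nr2f6 only a single half-site of that kind is printed. All 3 stretches come from the RefSeq promoters of GRCm38.p6. Rarb is shown because its promoter carries the classical element, and Rarg and Nr2f6 because they were the members with the smallest p-values between the days. Capitals mark the hexamer half-sites. The letters searched were AGGTCA as the consensus, GGGTCA with its first base exchanged, AGTTCA with an inner base exchanged and GGTTCA with both exchanged, on both strands. Each stretch is written 5′ to 3′ along the strand of its gene, which is the minus strand in all 3.
Rarb, chr14:16575488-16575554: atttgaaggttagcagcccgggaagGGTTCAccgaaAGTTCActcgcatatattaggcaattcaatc
Rarg, chr15:102257717-102257772: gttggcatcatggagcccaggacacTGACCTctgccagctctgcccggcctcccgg
Nr2f6, chr8:71382070-71382125: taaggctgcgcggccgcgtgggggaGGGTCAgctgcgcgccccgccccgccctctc

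Rarb alone of the 29 members with a promoter in the table held a direct repeat of 2 half-sites with 5 bases between them, the DR5 arrangement to which retinoic acid receptors bind. It lies between 53 and 37 bases before the gene's start. The same repeat, searched on both strands, occurs in 29 of 32851 promoters of 250 bases (0.0883%). Single half-sites are common and carry little information. At least 1 of the 4 hexamers lay in 38.6% of all promoters and in 17 of the 48 promoters of the members, and AGGTCA, the hexamer read on the opposite strand in Rarg, lay in 14.0%. A match describes these letters and is no evidence of binding.

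The arrays differed in a sign of RNA quality that their own control sets give. The array carries sets for the 3′ end and the 5′ end of the same control transcripts, and the gap between the ends widens when RNA is broken or is copied only in part. For Gapdh the 3′ set exceeded the 5′ set by a log2 difference of 0.34 and 0.20 in P54 replicates 1 and 2, by 0.23 in P59 replicate 1 and by 4.57 in P59 replicate 2. For Actb the same gaps were 0.45, 0.52, 0.18 and 1.64. The gap was therefore widest in P59 replicate 2 for both transcripts. For Pcx it was 3.34, 2.51, 3.24 and 3.50, wide on every array. Median log2 intensity was between 6.02 and 6.12 on the 4 arrays. The part of RNA quality in the differences between days was not tested. For each set used, the difference without P59 replicate 2 is given where it changed sign or moved by over 1.5 times.

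**Figure D1:**
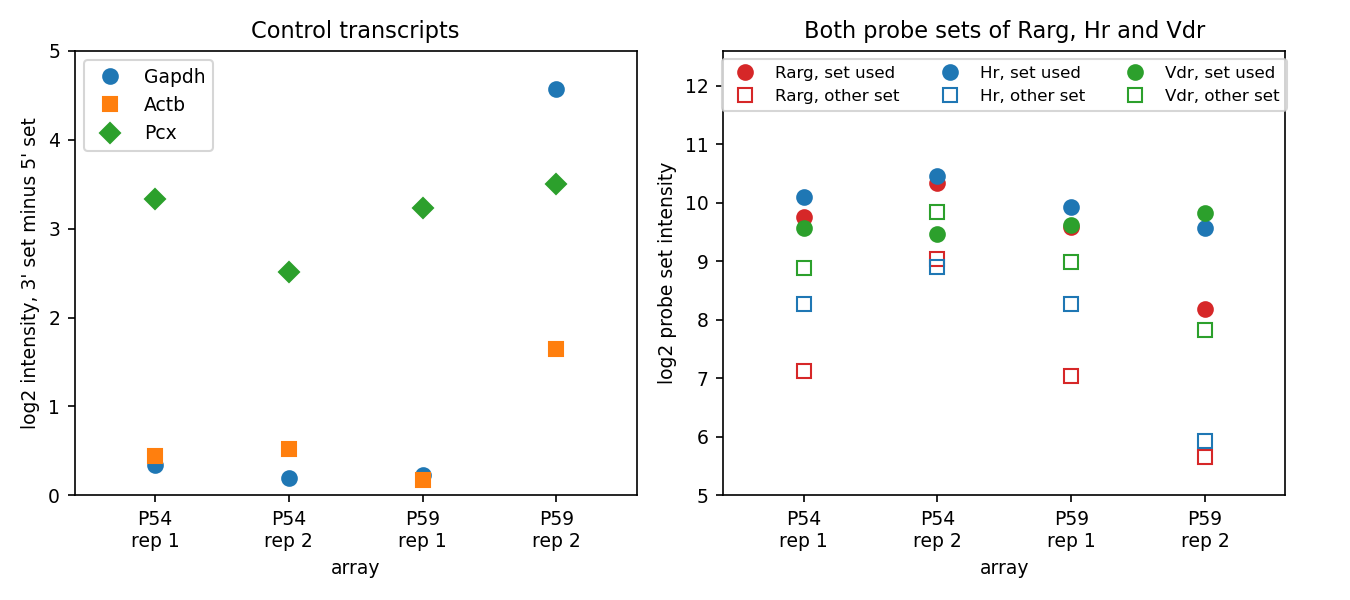
Left: log2 intensity of the 3′ set minus that of the 5′ set (vertical axis) for the control transcripts Gapdh, Actb and Pcx on each array (horizontal axis). P59 replicate 2 stands at 4.57 for Gapdh and 1.64 for Actb. Right: log2 intensity of both probe sets of Rarg, Hr and Vdr on the same arrays. The second set of each gene (open squares) is lowest in P59 replicate 2, while the set used for Vdr (filled green) is highest there.

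Which of these genes telogen skin transcribes was read against the intensity filter of the gene tests, the 40th percentile of mean log2 intensity over all genes (6.58). Of the 32 measured members 22 lay above it, 18 receptors and 4 coregulators, and 10 lay below it. The filter is no sharp limit of detection. Of 21 measured genes of other tissues, such as liver, retina and testis, 17 were below it, with a median of 5.50, and the lung secretoglobin gene Scgb1a1 reached 8.41. Above that level lay 11 members by the set used: Rarg, Rxra, Rxrb, Vdr, Thra, Nr3c1, Esr1, Nr2c2, Hr, Ncoa1 and Ncoa2. For Esr1 and Nr2c2 all other sets of the gene lay below the filter. Esrrb was among the 22 only by a set that can also match other transcripts. Probe sets differ in brightness at equal RNA, so levels of different genes were not ranked against each other, and a gene below the filter may still be transcribed in a rare cell type.

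**Figure D2:**
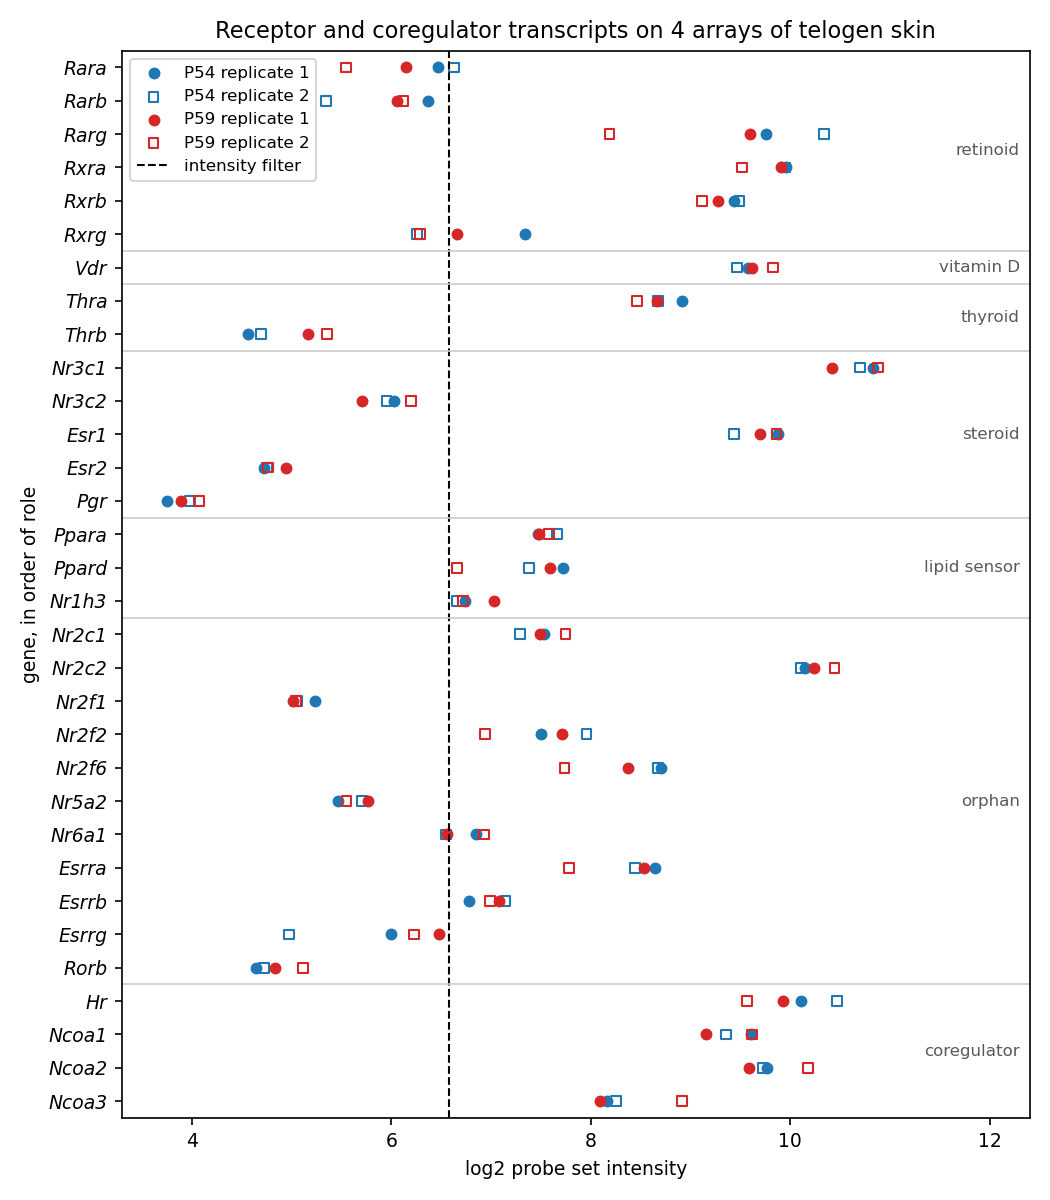
Log2 probe set intensity (horizontal axis) of the 32 measured members (rows, grouped by role) on each of the 4 arrays, with the intensity filter of 6.58 as a dashed line. The 22 genes above the filter by their mean include 1 or more receptors for retinoids, vitamin D, thyroid hormone, glucocorticoids, estrogen and fatty acids. The 4 points of a gene mostly lie close together, with Rarg spread from 8.19 to 10.34.

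No member passed the adjusted threshold of 0.05 between the days in limma's fit (0 of 22 tested, adjusted p between 0.599 and 0.998), as was so for all but 0.0183% of the 10916 genes tested. At an unadjusted p under 0.05 stood 2 members, Rarg and Nr2f6, both with lower values at P59. They are 9.09% of those tested, where 6.49% of all genes had such a p (3.01% lower and 3.47% higher at P59), so the count is near the background. The groups did not overlap for 8 members (36.4%, against 33.7% of all genes). Of these 6 were lower at P59 (27.3%, against 14.8%) and 2 were higher, a direction in which 18.9% of all genes stood. Leaving out P59 replicate 2, the count of members at an unadjusted p under 0.05 was 0 (against 6.35% of all genes), and without P59 replicate 1 it was 7 (31.8%, against 18.6% of all genes). The means of 13 members were lower at P59 (59.1%, against 41.6% of all genes). The median log2 difference was -0.11 over the members tested and 0.05 over all genes. It was 0.01 over these members without P59 replicate 1, -0.18 without P54 replicate 2 and -0.10 without P59 replicate 2.

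P59 replicate 2 was the lowest of the 4 arrays for 9 of the 22 members (40.9%, against 23.3% of all genes tested) and the highest for 8 (36.4%, against 46.4%). The 95% intervals of 20 members included 0. They were wide, with a median half-width of 0.55 on the log2 scale. In limma they rest on a gene's own spread (2 residual degrees of freedom) and on a spread shared over all genes (8.18 prior degrees of freedom). Differences of members under about 1.5-fold could not be told from that combined spread. An exact permutation test of 2 arrays against 2 cannot give a two-sided p below 0.333.

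**Figure D3:**
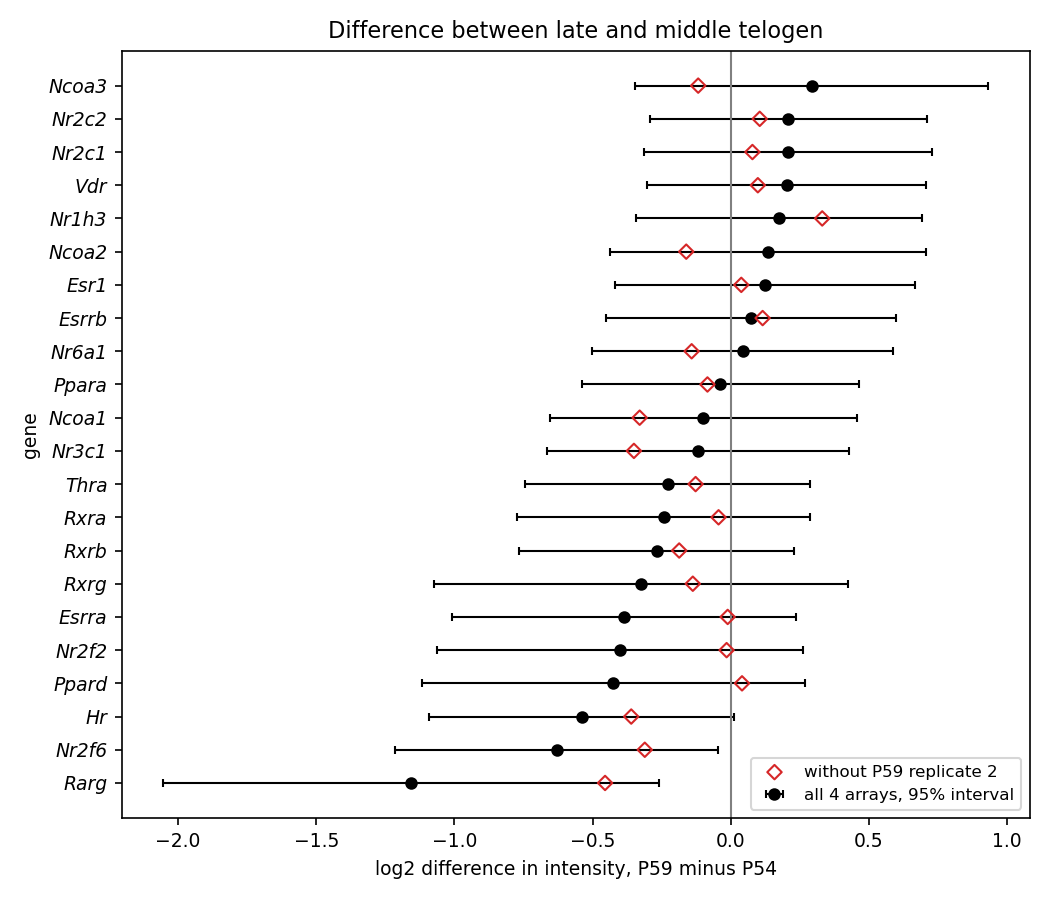
Log2 difference in intensity, P59 minus P54 (horizontal axis), of the 22 members tested (rows), with limma's 95% interval as bars (filled circles, 2 arrays against 2). Open diamonds give the difference without P59 replicate 2. The intervals of Rarg and Nr2f6 lie below 0, and without that array their differences are -0.45 and -0.31.

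Among the retinoid receptors Rarg, the retinoic acid receptor of epidermis, had the largest difference of the 22 members tested. On the log2 scale its intensity read 9.76 in P54 replicate 1, 10.34 in P54 replicate 2, 9.59 in P59 replicate 1 and 8.19 in P59 replicate 2. Both P59 arrays lay below both P54 arrays, P59 replicate 1 by little and P59 replicate 2 by much. The difference was -1.16 (SE 0.40, 95% interval -2.05 to -0.26, adjusted p = 0.599), or 2.23-fold. It was -0.45 without P59 replicate 2 and -1.86 without P59 replicate 1, when it passed the adjusted threshold (adjusted p = 0.0174) on the single remaining P59 array. Over all alternatives its adjusted p ran from 0.0168 to 1. The second Rarg set gave 7.12, 9.05, 7.05 and 5.66 in the same order of arrays, a difference of -1.73, with the P54 replicates 1.92 apart.

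Rxra and Rxrb, the common partners of the other receptors, varied little. Rxra was at 9.96 and 9.95 on the P54 arrays, against 9.91 and 9.51 on the P59 arrays, a difference of -0.24 (95% interval -0.77 to 0.29), and -0.044 without P59 replicate 2. Rxrb was at 9.43 and 9.49 against 9.28 and 9.11, a difference of -0.27 (-0.77 to 0.23). Both genes had groups that did not overlap, by margins within those intervals. Rxrg, a partner found mainly in muscle and nervous tissue, lay at the filter, at 7.34, 6.26, 6.66 and 6.28. Its difference of -0.33 rested on P54 replicate 1 and was 0.22 without that array, and -0.14 without P59 replicate 2.

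The other retinoic acid receptor genes lay below the filter. Rara was at 6.47 and 6.63 on the P54 arrays, against 6.15 and 5.55 on the P59 arrays, the lowest again in P59 replicate 2. Rarb, the receptor gene whose promoter carries the repeat printed above, was at 6.37, 5.34, 6.06 and 6.12, with the P54 replicates farther apart than the days.

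Vdr, the vitamin D receptor, was at 9.57 and 9.46 on the P54 arrays, against 9.62 and 9.83 on the P59 arrays. The P59 arrays lay above the P54 arrays by a narrow margin, and the difference was 0.20 (95% interval -0.30 to 0.71), or 0.098 without P59 replicate 2. The second Vdr set went the other way, at 8.89, 9.85, 8.98 and 7.82, a difference of -0.97, so these data settle no direction for Vdr. For Rarg and Vdr alike, the set that was not used ranged more widely over the arrays than the set that was.

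Thra, the main thyroid hormone receptor gene of most tissues, was measured by 3 sets above the filter. The set used was at 8.91 and 8.68 on the P54 arrays, against 8.67 and 8.47 on the P59 arrays, a difference of -0.23 (95% interval -0.74 to 0.29), or -0.13 without P59 replicate 2. The other sets differed by -0.40 and -0.56, in the same direction. Thrb lay far below the filter, at 4.56 and 4.70 against 5.16 and 5.35.

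Of the steroid receptors only Nr3c1 and Esr1 were above the filter. Nr3c1, the glucocorticoid receptor, was at 10.83 and 10.70 on the P54 arrays, against 10.41 and 10.88 on the P59 arrays, so the groups overlapped and the difference was -0.12 (95% interval -0.67 to 0.43), or -0.35 without P59 replicate 2. Its 3 other sets above the filter differed by between -0.01 and 0.17. Esr1, estrogen receptor alpha, was at 9.87, 9.44, 9.69 and 9.86, a difference of 0.12 (-0.42 to 0.67), or 0.038 without P59 replicate 2. The other Esr1 sets, both below the filter at means of 6.10 and 4.74, differed by -0.58 and -0.22. The mineralocorticoid receptor gene Nr3c2 was between 5.70 and 6.20, Esr2 between 4.72 and 4.94 and the progesterone receptor gene Pgr between 3.76 and 4.08, all below the filter on each array. In bulk skin, fewer cells of a type and less RNA per cell cannot be told apart, for these genes as for the others.

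Among the lipid sensors Ppara was close to constant by the set used, at 7.48 and 7.66 at P54 and 7.48 and 7.58 at P59. Its difference of -0.04 (95% interval -0.54 to 0.46) was the smallest of the 22 members tested, and was -0.084 without P59 replicate 2. The other Ppara sets, both below the filter, differed by -1.33 and -1.20, and the mean of its 3 sets by -0.86 (limma, adjusted p = 0.746). Ppard, which acts in keratinocytes and wound repair, was at 7.72 and 7.38 against 7.59 and 6.66. Its difference of -0.42 (-1.12 to 0.27) came from P59 replicate 2 and was 0.04 without it. Nr1h3, liver X receptor alpha, a sensor of oxysterols in macrophages and fat, was at 6.74 and 6.66 against 7.03 and 6.72, a difference of 0.17 just above the filter, or 0.33 without P59 replicate 2.

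The orphan receptors, for which no ligand or no settled ligand is known, held the other member at an unadjusted p under 0.05. Nr2f6, a repressor of the COUP-TF group, was at 8.70 and 8.67 on the P54 arrays, against 8.37 and 7.74 on the P59 arrays. The P54 arrays agreed closely, and P59 replicate 2 was again lowest. The difference was -0.63 (SE 0.26, 95% interval -1.21 to -0.05, adjusted p = 0.743), or 1.55-fold, and -0.31 without P59 replicate 2. A second Nr2f6 set of similar brightness was at 8.26, 8.01, 8.23 and 8.72, a difference of 0.34 in the opposite direction, and the mean of both sets differed by -0.14.

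The sets of Nr2f2, a COUP-TF receptor of veins and stroma, also disagreed. The set used was at 7.50, 7.96, 7.71 and 6.94, a difference of -0.40 (-0.015 without P59 replicate 2). Another was at 7.47, 6.82, 7.54 and 7.84, a difference of 0.55. Esrra, which drives mitochondrial genes, was at 8.64 and 8.44 against 8.53 and 7.78, a difference of -0.39, or -0.011 without P59 replicate 2, and its second set differed by -0.59.

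The testicular receptor genes Nr2c1 and Nr2c2 gave small positive differences, 0.21 each, with intervals of -0.31 to 0.73 and -0.29 to 0.71, and 0.079 and 0.11 without P59 replicate 2. Nr2c2 was at 10.15 and 10.11 on the P54 arrays, against 10.24 and 10.44 on the P59 arrays, without overlap. All other Nr2c2 sets lay below the filter, with means from 3.33 to 6.13 and differences from -0.95 to 0.12. Nr6a1 and Esrrb lay just above the filter and differed by 0.04 and 0.07 (-0.14 and 0.12 without P59 replicate 2). The Esrrb set used is of a kind that can also match other transcripts. The other Esrrb sets lay far below the filter, at means of 4.45 and 4.39, so these arrays do not settle whether Esrrb is transcribed. Below the filter were Nr2f1 (5.02 to 5.24), Nr5a2 (5.46 to 5.77), Esrrg (4.97 to 6.48) and Rorb (4.65 to 5.11).

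Over all members, 16 further sets above the filter could be compared with the set used, for 13 of the genes tested. The difference between days had the same sign in 11 of these sets and the opposite sign in 5.

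Of the coregulators Hr had the largest difference. Hairless, a corepressor of the vitamin D and thyroid hormone receptors, was at 10.10 and 10.46 on the P54 arrays, against 9.92 and 9.57 on the P59 arrays. All P59 values lay below all P54 values, and the difference was -0.54 (SE 0.25, 95% interval -1.09 to 0.01, adjusted p = 0.781), or 1.45-fold. It was -0.36 without P59 replicate 2. A second Hr set was at 8.26 and 8.90 at P54, at 8.27 in P59 replicate 1 and at 5.93 in P59 replicate 2, a difference of -1.48 in which P59 replicate 1 lay between the P54 replicates.

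The p160 coactivator genes did not differ beyond their spread. Ncoa1 was at 9.61 and 9.36 against 9.15 and 9.61, a difference of -0.10. Ncoa2 was at 9.77 and 9.72 against 9.58 and 10.18, a difference of 0.13, and Ncoa3 at 8.16 and 8.25 against 8.09 and 8.91, a difference of 0.29. P59 replicate 2 was the highest array for each of the 3, and P59 replicate 1 the lowest. Without P59 replicate 2 the differences were -0.33, -0.16 and -0.12.

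Genes that work with the members were taken from lists of further receptors, coregulators, ligand enzymes and target genes, in which a gene may stand more than once. No gene of these lists passed the adjusted threshold in limma (0 of 95 entries tested, 17 of them at an unadjusted p under 0.05). Those 17 are 17.9% of the entries, where 6.49% of all genes had such a p, over lists chosen with earlier results of these data known.

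Of 24 genes of enzymes and carriers that make or remove ligands 19 were measured, and 11 of these lay below the filter. Of the list's 8 tested genes 7 were higher and 1 lower at P59, where 41.6% of all genes tested were lower. At an unadjusted limma p under 0.05 stood 4 higher and 1 lower, where 3.47% and 3.01% of all genes did. The median of the list was 0.46. Aldh1a3, which makes retinoic acid, was at 5.92 and 5.77 on the P54 arrays, against 7.35 and 7.77 on the P59 arrays, a difference of 1.71 (adjusted p = 0.0668). Its P54 values lay below the filter, so it was tested only through its values at P59, and the size of that difference is rough. It is among the 7 genes with higher means and the 4 at an unadjusted p under 0.05. Hsd11b1, which regenerates active glucocorticoid in the cell, was at 9.10 and 8.62 against 9.32 and 9.78, a difference of 0.69 (0.46 without P59 replicate 2). Cyp27a1, which oxidises sterols and vitamin D, was at 9.12 and 9.27 against 9.53 and 10.16, a difference of 0.65 (0.34 without P59 replicate 2). Cyp26b1, which breaks down retinoic acid, was at 9.90 and 10.02 against 9.41 and 9.43, a difference of -0.53 that was -0.54 without P59 replicate 2. Aldh1a1, named after its values were seen, differed by 0.71, or by 0.26 without P59 replicate 2. The list's median was 0.19 when P59 replicate 2 was left out.

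Target genes of the receptors showed no common direction. Over all genes tested 41.6% had a lower mean at P59. Of 5 tested targets of retinoic acid receptors 4 were higher (median 0.22), with Tgm2, a transglutaminase gene, at 10.12 and 9.86 against 10.71 and 10.54, a difference of 0.63. Dhrs3 and Rarres1 differed by 0.27 and 0.22, or by 0.12 and 0.14 without P59 replicate 2. Cyp26b1, named above among the enzymes, was the target with a lower mean, at a difference of -0.53. Among vitamin D targets only Cdkn1a was above the filter, at a difference of -0.33, and Cyp24a1, the most direct of them, lay between 4.57 and 4.94.

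Glucocorticoid targets were divided, with 8 of 13 lower at P59 (41.6% of all genes tested were lower) and a median of -0.22. The clock gene Per1 was at 10.63 and 10.23 against 9.05 and 8.81, a difference of -1.50 (adjusted p = 0.106), and -1.38 without P59 replicate 2. Errfi1, a feedback inhibitor of the EGF receptor, differed by -1.71 and the phosphatase gene Dusp1 by -0.85, both lowest in P59 replicate 1, without which they differed by -0.95 and -0.49. Mt1, a metallothionein gene, differed by 0.57 in the other direction. Nfkbia, named after its values were seen, was the fifth gene of the list at an unadjusted limma p under 0.05. It differed by -0.66, or by -0.29 without P59 replicate 1 and -1.03 without P59 replicate 2. Over all genes tested 6.49% had an unadjusted limma p under 0.05. Per1 varies with the time of day, and the labels do not state the hour of sampling. Over the list the median was -0.81 without P59 replicate 2 and 0.06 without P59 replicate 1.

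Thyroid hormone targets had a median of -0.20 over 4 genes, led by Mbp (-0.54, or -0.20 without P54 replicate 1) and Thrsp (-0.32), with Me1 at -0.08 and Klf9 at 0.02 (-0.13 and -0.33 without P59 replicate 2). Liver X receptor targets had a median of 0.16 over 12 genes, 8 higher and 4 lower at P59 (41.6% of all genes were lower). Pltp differed by 0.47, Abcg1 by 0.41, Smpdl3a by 0.40 and Mylip by 0.38. Without P59 replicate 2 the last 3 differed by 0.24, 0.14 and 0.25. None of these 12 had an unadjusted limma p under 0.05. PPAR targets had a median of 0.09 over 14 genes. Pdk4, which slows glucose oxidation, had a mean of 10.35 ± 0.50 at P54 and of 11.50 ± 0.72 at P59 (SD, n = 2 each), a difference of 1.14 (adjusted p = 0.506), or 0.63 without P59 replicate 2. Angptl4, an inhibitor of lipoprotein lipase, differed by 0.68, or 0.31 without that array, while Hadha differed by -0.33 and Acadm by 0.30 (-0.14 and 0.15 without that array). Estrogen receptor targets had a median of -0.07 over 6 genes. Ctsd differed by -0.55, or 0.22 without P59 replicate 2, Cxcl12 by 0.28 (0.052 without that array), Igfbp4 by 0.20 and Tff1 by -0.18 (0.20 without P59 replicate 2).

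**Figure D4:**
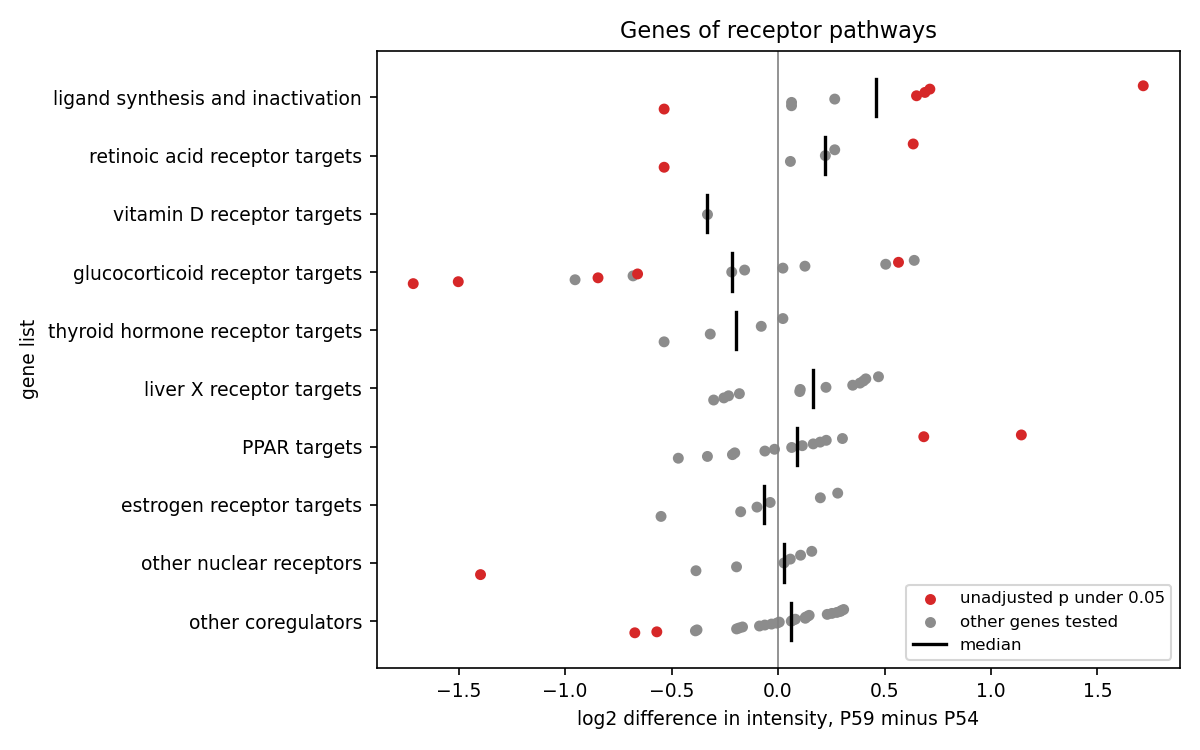
Log2 difference in intensity, P59 minus P54 (horizontal axis), of each tested gene of the lists of receptor pathway genes (rows), with red points at an unadjusted limma p under 0.05 and a black bar at the median of the list. The medians lie between -0.33 and 0.46. The point farthest to the right is Aldh1a3 at 1.71, a gene tested only through its values at P59.

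Further nuclear receptors and coregulators were tested beside the members. Of 19 further receptors 16 were measured and 7 were above the filter, with a median difference of 0.03. The immediate early receptor gene Nr4a1 was at 11.37, 9.43, 9.44 and 8.56, a difference of -1.40 that came mostly from P54 replicate 1 and was -0.43 without it. Nr4a2 differed by -0.39 (0.44 without P54 replicate 1 and -0.62 without P59 replicate 2), the clock repressor gene Nr1d1 by -0.19 (0.28 without P59 replicate 2) and Pparg, the receptor of fat cell formation, by 0.16 (-0.10 without P59 replicate 2). Of 26 further coregulators 25 were measured, all above the filter. Of these 14 were higher and 11 lower (41.6% of all genes were lower), with a median of 0.06. Gps2, a subunit of the Ncor complex, was at 7.78 and 7.85 against 7.48 and 6.80, a difference of -0.67 (-0.33 without P59 replicate 2). The coactivator gene Ppargc1b was at 8.27 and 8.06 against 7.72 and 7.48, a difference of -0.57 (-0.45 without P59 replicate 2). Ncoa5 and Hdac3 differed by -0.38 and -0.39, or by -0.18 and 0.0012 without P59 replicate 2.

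Markers of cell types of skin were compared between the days, with 0 of 49 tested past the adjusted threshold in limma. At an unadjusted limma p under 0.05 stood 14, where 6.49% of all genes had such a p. Of these 14, 6 were the inner root sheath and hair shaft markers. All 6 basal keratinocyte markers were lower at P59, with a summed intensity of 35023 and 37884 at P54 and of 29498 and 25960 at P59. The 5 measured adipocyte markers were lower as well (summed 16518 and 14377, against 11622 and 13117). All 6 macrophage markers were higher, with sums of 9686 and 8558 against 9722 and 14226. The 6 inner root sheath and hair shaft markers summed to 687 and 238 at P54, to 11011 in P59 replicate 1 and to 2007 in P59 replicate 2. Their P54 means lay between 5.71 and 6.38 on the log2 scale, below the filter. They were thus tested only through their values at P59. Whether all follicles in the P59 samples were at rest was not tested. Sums of fibroblast markers stayed between 91328 and 95042. Suprabasal sums were 48711 and 51726 against 41304 and 44436, those of skeletal muscle 96671 and 78531 against 104706 and 78057, those of endothelium 1958 and 1682 against 1665 and 1793, and those of the 3 measured sebaceous markers 2222 and 3020 against 3014 and 1790. By the mean over all arrays Mc5r was the single measured marker below the filter. The part of these cell types in the differences of Rarg, Hr and the other members was not tested.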

How the data were processed

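The authors deposited 1 table of linear probe set intensity values for 4 arrays, 2 per day, and the submitters' processing notes name RMA and Affymetrix Expression Console; the version of each, and any genome build, are not given in the sources used here. These intensities (6.41 to 24000) were taken to log2 without a pseudocount. Of 45101 probe sets, 34945 were listed with 1 gene symbol in GEO's platform annotation, 932 with several and 9211 with none; 13 control sets with 1 symbol were left out. Symbols were matched by Entrez identifier to RefSeq (GRCm38.p6) for 34741 sets, with 0 renamed. Per gene, the set with the highest mean was used. Genes above the 40th percentile were fitted with limma 3.58.1 in R 4.3.3 (lmFit, eBayes), P59 minus P54, with Benjamini-Hochberg adjustment over 10916 genes, 2 residual and 8.18 prior degrees of freedom. The number of arrays limits the precision. All 34 members are named, and of each other list up to 4 tested genes with the smallest p. The members and lists were chosen with earlier results of these data known. Data of 10916 genes with 200 changed were also simulated. Of 2-fold changes, limma recovered 97.3% at an unadjusted p under 0.05 and 55.0% at the adjusted threshold. The simulated noise was independent for each gene and array, with no array set apart as P59 replicate 2 is. These shares may therefore not hold for the real arrays. Replicate numbers do not pair the samples by their labels. Alternatives were another filter or none, the mean of probe sets, repeated quantile normalization, a trended prior, a replicate block and leaving out each array.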

Additional observations from a re-analysis of the deposited data

Results flagged for a closer look

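The control sets of the array, which enter no comparison between genes, showed a gap between transcript ends wider than on the P54 arrays: the 3′ set of Gapdh exceeded its 5′ set by 4.57 on the log2 scale in P59 replicate 2, against 0.34 and 0.20 at P54 and 0.23 in P59 replicate 1. The 5′ set was at 8.62 there and between 13.19 and 13.69 on the other arrays, while the 3′ set was between 13.20 and 13.93 on all 4.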

How the results depend on the processing

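Over all genes, 2 passed the adjusted threshold, 0 with no filter, with the filter at the 60th percentile, with the mean of all probe sets or with repeated quantile normalization (limma, with 457 to 1122 genes at an unadjusted p under 0.05), and 29 to 402 when 1 array was left out, which leaves a group with 1 array assumed to vary like the other. The 708 genes at an unadjusted p under 0.05 became 1122 with no filter, 457 with the stricter filter and 273 to 2030 without 1 array, 273 without P54 replicate 2 and 2030 without P59 replicate 1. Members at such a p numbered 6 with no filter (18.8%, against 6.17% of all genes), when Rara, Thrb and Esrrg below the filter and Hr joined Rarg and Nr2f6, 5 with the mean of probe sets (23.8%, against 6.46%), which were Rara, Rarg, Ppara, Esrra and Hr while Nr2f6 was lost (limma, adjusted p = 0.889), and 0 to 7 without 1 array (0% to 31.8%, against 2.50% to 18.6%). Members whose groups did not overlap numbered 14 with no filter (43.8%, against 35.6% of all genes) and 13 to 17 without 1 array (59.1% to 77.3%, against 53.3% to 80.2%), where a group of 1 array has no range of its own. The median over the members tested was 0.0028 with no filter, -0.22 with the mean of probe sets and -0.18 to 0.013 without 1 array. At the stricter filter 14 members remained tested.

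The replicate block, which the labels do not call for, gave 156 genes past the adjusted threshold, among them Rarg (-1.16, adjusted p = 0.0168), and called no other member. Deviations of same-numbered arrays from their group means correlated at -0.04 over the genes tested. With so few arrays on each day, that value cannot decide whether same-numbered samples share more than a number.

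With the mean of probe sets, where 18 of the 22 members stayed above the filter, the sign turned for Vdr (-0.38), Nr3c1 (0.070), Esr1 (-0.22) and Ncoa2 (-0.15), whose sets disagree. Without 1 array in turn the log2 difference ranged over 0 for 10 members: from -0.87 to 0.22 for Rxrg, -0.35 to 0.11 for Nr3c1, -0.10 to 0.34 for Esr1, -0.13 to 0.055 for Ppara, -0.89 to 0.041 for Ppard, -0.14 to 0.23 for Nr6a1, -0.11 to 0.26 for Esrrb, -0.33 to 0.13 for Ncoa1, -0.16 to 0.43 for Ncoa2 and -0.12 to 0.71 for Ncoa3. The other 12 members kept their sign in every alternative that gave them a value, apart from Vdr with the mean of probe sets, and Rarg ranged from -1.86 to -0.45. The 10 measured members below the filter were tested only under the alternatives that let them in, and intensities close to background limit what the arrays show of them. The cause of these changes was not tested.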
